A study of Mus musculus with 924 samples.

Results

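The nuclei described here are dentate granule nuclei of the mouse hippocampus at 2 ages, 2 years and 4 weeks. The question is which transcripts of the 4-week nuclei were also found in single 2-year nuclei. Of the 924 nuclei of the series, each sequenced on its own, 248 came from these ages and 171 of them were kept as granule nuclei, 102 at 2 years and 69 at 4 weeks. A nucleus was chosen by its own expression values: Prox1 above 0, at least 2 of the 5 genes C1ql2, C1ql3, Fam163b, Glis3 and Sema5a above 0, and Gad2 at 0. These genes are therefore no findings. At the edge of the rule, 2 of the 2-year and 6 of the 4-week nuclei were kept with exactly 2 of the 5 genes, 0 and 2 were left out with exactly 1, and 16 at each age were left out because Prox1 and Gad2 were both present.

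All mice were C57BL/6. Hippocampal tissue was dissected and fixed, nuclei were isolated on a gradient and sorted into plates, and full-length cDNA libraries were made from nuclear RNA by a modified Smart-seq2 protocol. Nuclei of 1 age with the same number in their labels are called a preparation here, and each of these ages had 2. At 2 years, preparation 1 gave 42 granule nuclei of 63 nuclei and carried no region label, and preparation 2 gave 60 of 72 and was labelled DG (dentate gyrus). At 4 weeks, preparation 1 gave 20 of 35 and was labelled DG, and preparation 2 gave 49 of 78 and carried no region label. The 4 preparations of 12-week C57BL/6 dentate gyrus, with 236 granule nuclei by the same rule, are given beside them and shared the estimate of spread. The labels do not say whether a number marks an animal, so the p-values reflect the spread of the preparations alone, and that spread may be technical.

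Granule neurons are the excitatory principal cells of the dentate gyrus. They receive cortical input through the perforant path and contact CA3 through the mossy fibres. They are born over a long period that reaches into postnatal life, and a young granule neuron carries genes of neurite growth and microtubule turnover before it takes on calbindin and the receptor subunits of the mature cell.

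The kept nuclei had the markers of excitatory neurons. Slc17a7, the vesicular glutamate transporter of granule and pyramidal neurons, was detected (a value above 1) in 90% to 98.3% of granule nuclei of the 2-year and 4-week preparations, and Rbfox3, a marker of neuronal nuclei, in 90.5% to 100%. Slc32a1, the vesicular GABA transporter that defines inhibitory neurons, was at 0 in all 102 and all 69 nuclei, which allows shares of up to 2.94% and 4.35%. The pyramidal neuron genes Mpped1, Neurod6 and Nov were in at most 6.12% of the nuclei of any of these preparations. Gad1, which granule neurons are known to express at a low level, was in 63.3% to 73.8%. No caller of joined nuclei was run; 17 of the 2-year and 21 of the 4-week nuclei held at least 2 defining markers of another class and were kept. The median number of recovered reads per nucleus (reads worked out from the steps of low values) was 95672 and 146796 in 2-year preparations 1 and 2 and 116074 and 80233 in 4-week preparations 1 and 2.

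Promoter windows of 12 of the genes that moved between the ages were searched on both strands for 3 short motifs. Those of 4 of the 5 genes with a match are shown, and the fifth, Hlf, which was higher at 2 years, had the cAMP element letters starting 9 bases before its start. They cover the 250 bases before the annotated start in RefSeq's table for GRCm38.p6, written along the gene's strand, with the match in capitals. The motifs were TGANTCA (the AP-1 element), TGACGTCA (the cAMP response element) and TATAAA (the TATA box), and a match is a description of letters, not of a bound site. Col6a1 and Sstr2 were lower at 2 years, as was Rgs4, and Nos1ap was higher. The Nos1ap window shown lies inside the gene. The window at its other, upstream start (chr1:170589850-170590099) held none of the 3 motifs. The Col6a1 match also lies inside the gene by the gene coordinates given below, which reach base 76726168.
Col6a1, chr10:76726045-76726294, minus strand, AP-1 letters starting 90 bases before the start: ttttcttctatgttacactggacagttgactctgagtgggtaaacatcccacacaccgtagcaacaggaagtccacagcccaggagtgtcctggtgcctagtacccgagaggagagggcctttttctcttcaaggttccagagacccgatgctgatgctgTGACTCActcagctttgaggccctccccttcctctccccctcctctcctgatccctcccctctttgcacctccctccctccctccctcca
Rgs4, chr1:169747643-169747892, minus strand, TATA letters starting 31 bases before the start: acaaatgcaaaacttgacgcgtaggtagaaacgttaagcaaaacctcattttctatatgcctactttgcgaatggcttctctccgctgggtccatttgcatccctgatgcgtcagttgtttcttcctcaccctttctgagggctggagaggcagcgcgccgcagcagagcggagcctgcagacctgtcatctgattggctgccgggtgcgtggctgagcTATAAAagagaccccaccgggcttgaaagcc
Sstr2, chr11:113619077-113619326, plus strand, cAMP element letters starting 58 bases before the start: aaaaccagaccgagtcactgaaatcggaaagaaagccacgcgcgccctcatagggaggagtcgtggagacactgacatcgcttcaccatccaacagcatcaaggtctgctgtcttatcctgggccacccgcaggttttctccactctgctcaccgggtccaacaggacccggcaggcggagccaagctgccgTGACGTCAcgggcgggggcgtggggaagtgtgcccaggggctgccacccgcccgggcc
Nos1ap, chr1:170557111-170557360, minus strand, the first of 2 annotated starts in the table, AP-1 letters starting 24 bases before the start: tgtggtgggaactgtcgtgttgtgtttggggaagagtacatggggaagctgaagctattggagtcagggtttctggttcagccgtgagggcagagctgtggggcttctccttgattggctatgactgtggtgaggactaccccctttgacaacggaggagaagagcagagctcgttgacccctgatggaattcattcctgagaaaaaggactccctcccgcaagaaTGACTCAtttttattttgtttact
The AP-1 letters stood in 6.75% of all 32841 promoter windows of this length and in 4.07% of the 10487 windows of tested genes. Of the genes lower at 2 years and common at 4 weeks (a set of 76 defined below), 56 had a window in the table, and the AP-1 letters stood in 7 of their 85 windows. The cAMP element stood in 1.55% of all windows, 2.73% of those of tested genes and 2 of the 85 (2.35%). The TATA letters stood in 12.4%, 6.25% and 6 of the 85 (7.06%).

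The comparison of the ages used, for each preparation, the log2(value + 1) of its granule nuclei averaged, where value is the deposited abundance on a TPM-like scale, taken out of its log. All differences below are on this scale, 2 years minus 4 weeks. They depend on the share of nuclei with a gene as well as on its level, and can understate or overstate a change. With the log2 of the mean value, 36 of the genes named here lost the call and 1 gained it. Some differences were then smaller (Kcnip3, -0.67 against -2.96) and some larger (Dcx, -4.88 against -1.43). Of 11003 genes tested, 342 passed limma's test at a Benjamini-Hochberg adjusted p of 0.05 (3.11%). Of these, 163 were higher at 2 years (1.48%) and 179 were lower (1.63%). The median difference over all tested genes was 0.06. With 1 preparation left out at a time the count ran from 114, without 2-year preparation 2, to 559, without 4-week preparation 2.

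The genes with the largest falls between 4 weeks and 2 years encode a peptide precursor, collagen chains and proteins of signalling and neurite growth. Penk (chromosome 4, 4133531 to 4138819, GRCm38), which encodes the precursor of the enkephalin opioid peptides, had mean levels of 8.86 and 10.42 in the 4-week preparations and 2.52 and 1.14 in the 2-year preparations. Both 2-year levels lay far under both 4-week levels. The difference was -7.81 (SE 0.66, limma adjusted p = 3.14e-09). In the 4 preparations of 12 weeks the mean level was 0.14 to 0.52, lower than in either 2-year preparation. The region label differed within each age. The difference was -7.72 between the DG-labelled preparations and -7.90 between those without a label.

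Col6a1 (chromosome 10, 76708792 to 76726168), the alpha 1 chain of collagen VI, a beaded-filament collagen of the pericellular matrix, had the largest fall of all named genes. Its mean levels were 9.88 and 10.16 at 4 weeks and 1.76 and 0.78 at 2 years, with 0.25 to 0.53 at 12 weeks. The 2-year preparations were again between the other ages but close to the 12-week ones. The difference was -8.75 (SE 0.62, limma adjusted p = 5.54e-11). It was -9.10 between the DG-labelled preparations and -8.41 between the unlabelled ones. Col6a2, the alpha 2 chain of the same collagen, fell by 2.10 (limma adjusted p = 0.00212), and Col27a1, a fibrillar collagen, fell by 4.48 (limma adjusted p = 5.16e-08). Col6a2 did not pass with only the 2-year and 4-week preparations (limma adjusted p = 0.0551) or with the log2 of the mean value (limma adjusted p = 0.1).

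Stmn2, a stathmin that destabilises microtubules in growing neurites, had mean levels of 8.72 and 6.76 at 4 weeks and 1.06 and 0.16 at 2 years. Here the 2-year preparations lay under all 4 of 12 weeks, which ran from 1.41 to 2.79. The difference was -7.13 (SE 0.69, limma adjusted p = 5.16e-08). Necab3, an EF-hand calcium-binding protein, had levels of 9.06 and 8.67 at 4 weeks and 3.31 and 1.59 at 2 years, against 0.29 to 1.19 at 12 weeks (difference -6.41, SE 0.67, limma adjusted p = 2.07e-07). Rgs4, which speeds the switching off of G protein alpha subunits, had levels of 9.09 and 9.80 at 4 weeks, 4.77 and 3.36 at 2 years and 1.53 to 2.41 at 12 weeks. Its difference was -5.38 (SE 0.70, limma adjusted p = 1.01e-05). Necab3 and Rgs4 were like Penk in that both 2-year preparations stood above all 4 preparations of 12 weeks. The remaining genes among the 10 largest falls were Tmc6, of the transmembrane channel-like family (-5.29), Rprm, a mediator of cell cycle arrest (-4.86), Cd63, a tetraspanin of late endosomes (-4.79), and the somatostatin receptor gene Sstr2 (-4.21). With the log2 of the mean value in place of the mean of log2 values, Necab3 (-2.69, limma adjusted p = 0.166), Cd63 (-2.63) and Sstr2 (-2.67) did not pass.

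**Figure D1:**
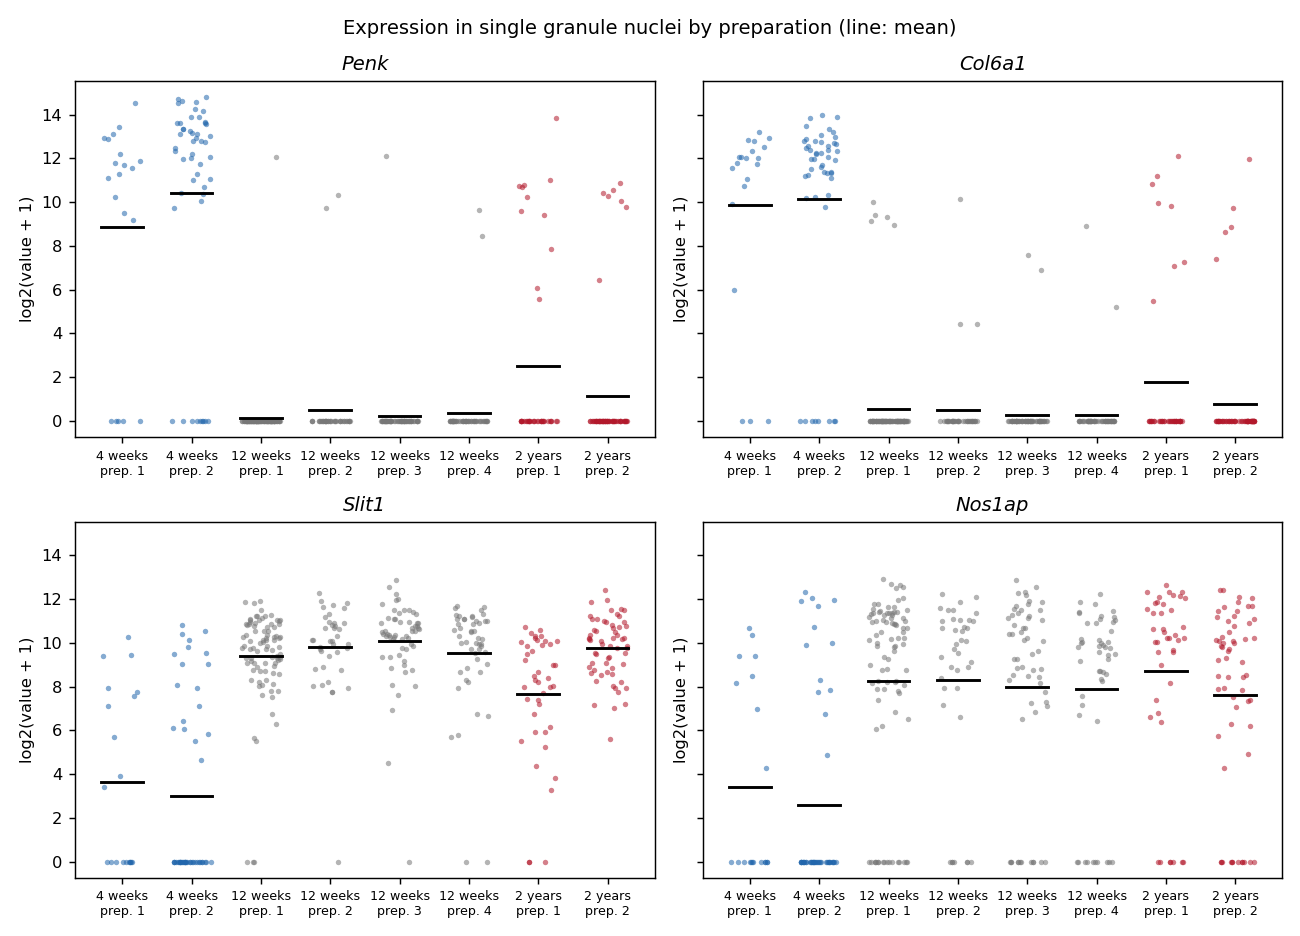
Expression of Penk, Col6a1, Slit1 and Nos1ap in single granule nuclei (y axis, log2(value + 1); each point 1 nucleus, each line the preparation's mean) in 2 preparations of 4 weeks, 4 of 12 weeks and 2 of 2 years. Penk and Col6a1 had means of 8.86 to 10.42 at 4 weeks and 0.78 to 2.52 at 2 years, with some 2-year nuclei at high levels; Slit1 and Nos1ap had means of 2.57 to 3.62 at 4 weeks and 7.62 to 9.76 at 2 years.

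The genes that rose include a guidance ligand, a peptide and an adaptor of nitric oxide synthase. Slit1 (chromosome 19, 41600257 to 41743665), a secreted ligand of Robo receptors that repels growing axons, had mean levels of 3.62 and 2.99 at 4 weeks, 7.66 and 9.76 at 2 years and 9.38 to 10.1 at 12 weeks. The difference was 5.40 (SE 0.64, limma adjusted p = 2.35e-06). Nos1ap (chromosome 1, 170302668 to 170589861), the adaptor that links neuronal nitric oxide synthase to its partners, had levels of 3.39 and 2.57 at 4 weeks and 8.72 and 7.62 at 2 years, with 7.87 to 8.28 at 12 weeks (difference 5.19, SE 0.65, limma adjusted p = 6.01e-06). For both genes the 2-year and 4-week preparations did not overlap, and the 12-week levels were near those at 2 years. Cck, the cholecystokinin peptide gene, had levels of 1.14 and 1.10 at 4 weeks and 5.77 and 6.85 at 2 years, and from 5.79 to 9.87 at 12 weeks (difference 5.19, SE 0.92, limma adjusted p = 0.000933).

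Camk2d, the delta subunit of calcium/calmodulin-dependent protein kinase II, had a different order of ages. Its levels were 0.96 and 0.47 at 4 weeks, 0.49 to 0.87 at 12 weeks and 5.02 and 4.91 at 2 years. Both 2-year preparations stood above all others, and its 12-week levels lay in the range of 4 weeks. The difference between 2 years and 4 weeks was 4.25 (SE 0.48, limma adjusted p = 8.68e-07). It was detected in 57.1% and 58.3% of the 2-year nuclei of preparations 1 and 2 and in 10% and 6.12% of the 4-week nuclei. The other large rises were the transcription factor gene Hlf (4.04), the sodium channel beta subunit gene Scn3b (4.02), Dock9, an exchange factor for Cdc42 (4.02), the phosphodiesterase gene Pde7b (3.93), Igfbp5, which binds insulin-like growth factors (3.92), and the lactase gene Lct (3.91). Without 2-year preparation 2, Hlf, Pde7b, Igfbp5 and Lct no longer passed (differences of 2.40 to 3.46, limma adjusted p of up to 0.191), and Pde7b did not pass without 4-week preparation 1 either. With the log2 of the mean value in place of the mean of log2 values, Camk2d lay at 3.38 and did not pass (limma adjusted p = 0.0842). Pde7b (4.81, limma adjusted p = 0.0532), Igfbp5 (2.84, limma adjusted p = 0.0507) and Lct (1.95, limma adjusted p = 0.0879) did not pass there either.

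To see which genes of the 4-week nuclei were also detected at 2 years, a set of 76 genes was taken. These were lower at 2 years by the test and were detected in at least 50% of the granule nuclei of each 4-week preparation. The ages were separate preparations, so no nucleus was followed. Whether a gene found at 2 years was kept from 4 weeks or appeared later was not tested. The 4-week and 2-year values chose this set, so the shares and levels that follow are descriptions and carry no test. Each of the 76 was found in at least 1 of the 102 old nuclei. The median gene was detected in 42.6% of 2-year nuclei, 76.8% of 4-week nuclei and 44.7% of 12-week nuclei. Over the single genes the 2-year share ran from 5.88% to 100%. In 2 genes it was under 10%, in 12 from 10% to 25%, in 27 from 25% to 50% and in 35 it was 50% or more. Detection depends on depth: over the 48 of the 76 genes for which reads could be recovered, thinning every nucleus to 20000 reads (2 nuclei of 4 weeks were shallower and left out) took the median share from 39.2% to 28.7% at 2 years and from 73.9% to 65.2% at 4 weeks.

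**Figure D2:**
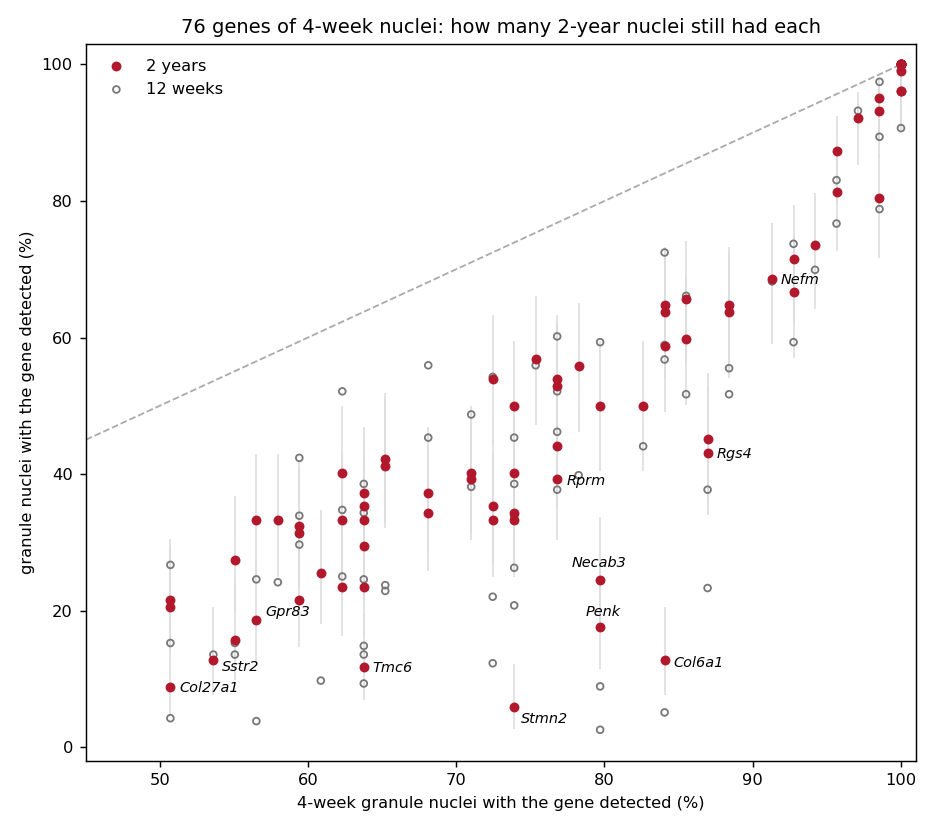
Share of granule nuclei in which each of the 76 genes was detected: x axis, percent of 69 nuclei at 4 weeks; y axis, percent of 102 nuclei at 2 years (filled, with 95% Wilson intervals) or of 236 nuclei at 12 weeks (open); the dashed line marks equal shares. Stmn2 (5.88%), Col6a1 (12.7%), Penk (17.6%) and Necab3 (24.5%) lie far under the line at 2 years, while genes in over 95% of 4-week nuclei were in at least 80.4% of 2-year nuclei.

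Among the genes in the fewest 2-year nuclei, Stmn2 was detected in 6 of 102 nuclei at 2 years (5.88%, 95% Wilson interval 2.72% to 12.2%) against 73.9% at 4 weeks. In preparation 2 of 2 years it was in 1.67% of nuclei. Col27a1 was in 8.82% and, where found, at a mean level of 3.73 against 9.56 in the 4-week nuclei that had it. Tmc6 was in 11.8%, Col6a1 and Sstr2 in 12.7% each, Speer7-ps1 (a pseudogene) in 15.7%, Penk in 17.6% and Gpr83, a G protein-coupled receptor, in 18.6%. Intervals and the limits for counts of 0 cover counting error only.

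At the other end stood genes that nearly every old nucleus had, at a lower level than at 4 weeks. Uchl1, a ubiquitin hydrolase abundant in neurons, was detected in 90.5% and 95% of 2-year nuclei, and its mean level in the nuclei that had it was 11.1 at 2 years and 12.4 at 4 weeks. The tyrosine kinase gene Matk was in 95.1% (levels 11.7 and 12.95), Fyco1, which couples autophagosomes to microtubule motors, in 96.1% (8.79 and 10.51), and the noncoding RNA gene Meg3 in 99% (12.6 and 13.7). Npdc1 and Rnf112 were in 92.2% and 96.1%. All 6 of these genes lost the call without at least 1 of the 2-year or 4-week preparations, with limma adjusted p-values of up to 0.208. For these genes the age difference was one of level and hardly of the number of nuclei. Malat1, a nuclear noncoding RNA, and Fgd4 were in all 102 nuclei, as were 5 transcripts without a name of function. Malat1 and Fgd4 also lost the call without 2-year preparation 2 or a 4-week preparation (limma adjusted p of up to 0.29). The values of Fgd4 and those 5 transcripts ran together across nuclei (mean Pearson r within preparations of 0.79 to 0.98 over 171 nuclei of 1 table, a description), so reads they may share could not be told apart.

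In the nuclei that had a gene, its level was lower at 2 years than at 4 weeks for 71 of the 76 genes, with a median difference of -0.88. The widest gap after Col27a1 was that of Penk (9.68 ± 2.03 in 18 nuclei at 2 years and 12.5 ± 1.44 in 55 nuclei at 4 weeks, SD over nuclei) and of Col6a1 (9.26 ± 2.04 in 13 and 12.0 ± 1.25 in 58). Only 1 of the 18 Penk nuclei of 2 years reached the median of the Penk nuclei of 4 weeks, and 0 of the 13 Col6a1 nuclei reached theirs. Of the old nuclei with Necab3, 5 of 25 lay at or above the 4-week median. Kcnip3, which encodes a calcium-binding partner of potassium channels and was seen in 50% of 2-year nuclei, had 22 of 51 at or above it.

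Most old nuclei with Penk or Col6a1 had many reads of it. In 2-year preparation 1 the 11 Penk nuclei held 1 to 191 recovered reads, with a median of 18. In preparation 2 the 7 Penk nuclei held 2 to 47, with a median of 35. Of the 18 nuclei, 13 had 10 or more reads and 3 had 1 or 2. The 55 Penk nuclei of 4 weeks held 3 to 1056 reads, with a median of 96. Col6a1 showed the same: 8 nuclei of preparation 1 with 6 to 230 reads, 5 of preparation 2 with 12 to 233, and a median of 212 in the 58 nuclei of 4 weeks. Thinned to 20000 reads, the Penk share was 14.6% at 2 years, 80% at 4 weeks and 2.58% at 12 weeks, and the Col6a1 share 11.5%, 85.7% and 3.89%.

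Both 2-year preparations held such nuclei, with more of them in preparation 1, which carried no region label. Penk was in 26.2% of the nuclei of preparation 1 and 11.7% of preparation 2, and Col6a1 in 19% and 8.33%. Over the 76 genes the share was higher in preparation 1 for 36. Penk and Col6a1 were found together in 6 nuclei of preparation 1 and 1 of preparation 2, so 7 of 102 old nuclei had both, 11 had Penk alone, 6 had Col6a1 alone and 78 had neither. At 4 weeks 51 of 69 had both and 7 had neither. In preparation 1, Col6a1 was present in 6 of 11 nuclei with Penk and 2 of 31 without it; in preparation 2, in 1 of 7 and 4 of 53.

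Most of the old nuclei that had Penk or Col6a1 also had Slit1 and Nos1ap, which were higher at 2 years. Of these 24 nuclei, 23 had Slit1 and 22 had Nos1ap. Of the 78 nuclei with neither, 76 had Slit1 and 61 had Nos1ap. At 4 weeks Slit1 was in 28 of 69 nuclei, and in 24 of the 55 with Penk. Calb1, the calcium buffer of mature granule neurons, was in 14 of the 24 and 54 of the 78. Genes high at 4 weeks and genes high at 2 years were thus detected in the same old nuclei. Slit1 was in 99 and Nos1ap in 83 of all 102 old nuclei, and both were chosen as high at 2 years. Most nuclei with Penk or Col6a1 would hold them in any case, so this is a description. Detection does not show whether their levels were the same. None of the 24 had Slc32a1, and 2 of them held at least 2 defining markers of another class. The nuclei with Penk or Col6a1 had a median of 5176.5 detected genes and the others 5402. Of the 111 genes counted below as higher at 2 years, the nuclei with Penk or Col6a1 had medians of 85 and 89 in preparations 1 and 2. Those with neither had 86 and 93.

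Counted over the other 74 genes of the set, an old nucleus with Penk or Col6a1 had a median of 41.5 genes and one with neither had 38. Rgs4 was in 17 of the 24 and 27 of the 78, and Necab3 in 10 of the 24 and 15 of the 78. Stmn2 was in 3 of each. The 7 nuclei with both Penk and Col6a1 all had Rgs4.

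Over the whole set of 76, a 2-year nucleus had between 23 and 62 genes, with medians of 39.5 and 39 in the preparations. A 4-week nucleus had between 35 and 73, with medians of 62 and 60, and the 12-week medians ran from 35 to 39. Of the 102 old nuclei, 20 lay at or above 44 genes, the 5th percentile of the 4-week nuclei, and 1 lay at or above their median of 61. The number follows the genes detected in a nucleus (Spearman rho 0.58 over 102 nuclei at 2 years and 0.82 over 69 at 4 weeks, nuclei of 1 table that also differ in depth). The mirror set of 111 genes, higher at 2 years and in at least 50% of each 2-year preparation, gave medians of 85.5 and 93 genes per nucleus at 2 years and 62 and 57 at 4 weeks.

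**Figure D3:**
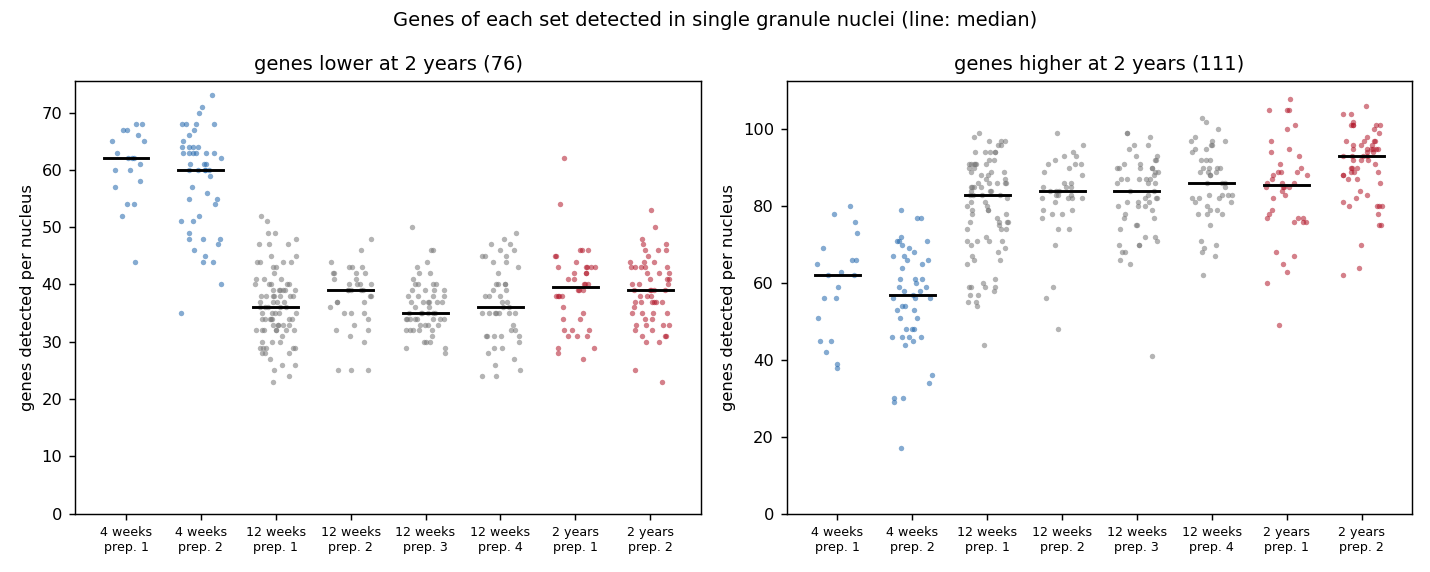
Number of genes detected per granule nucleus (y axes) out of the 76 lower at 2 years (left) and the 111 higher at 2 years (right), by preparation; each point is 1 nucleus and each line a median. On the left the 4-week medians of 62 and 60 stand above the 2-year medians of 39.5 and 39, with 1 old nucleus at 62 genes; both sets were chosen from this contrast.

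The genes of the set that were rarest at 2 years were seen a few at a time in old nuclei. Of the 14 genes found in under 25% of 2-year nuclei, 10 of the 102 old nuclei had none, 29 had 1, 36 had 2 or 3, 24 had 4 or 5 and 3 had 6 or more. At 4 weeks 62 of 69 nuclei had 6 or more, and at 12 weeks 4 of 236. The old nucleus with the most, from preparation 1, had 9 of the 14, among them Stmn2, Col6a1, Gpr83 and Necab3, and 62 of the 76 genes. Its Col6a1 level was 11.2, while its Penk level of 5.57 was the lowest of the 18 Penk nuclei. It also had Slit1 at 6.76, Nos1ap at 11.8, Calb1 at 10.4 and 89 of the 111 genes of the mirror set.

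Set beside the 12-week nuclei, 17 of the 76 genes were in a larger share of nuclei in both 2-year preparations than in any 12-week preparation (22.4%), and 6 were in a smaller share (7.89%). Over all tested genes the figures were 22.7% and 3.31%, so the 17 are close to what all genes showed beside median recovered reads of 54131 to 93079 in the 12-week preparations. The 17 include Penk, Col6a1, Col27a1, Necab3, Rgs4, Gpr83, the matrix gene Fbln2 and the phosphate transporter gene Slc20a1. Gpr83 was in 23.8% and 15% of 2-year nuclei and in 0% to 5.17% at 12 weeks, and Necab3 in 33.3% and 18.3% against 3.45% to 12%. Those in a smaller share were Stmn2, Mfsd12, Frmd5, Cep170b, Wdr6 and Tnfrsf25. Stmn2 was in 18% to 33.7% of 12-week nuclei.

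Among 32 tested genes of immature neurons and neurite outgrowth, 7 fell and 0 rose, where 1.63% of all tested genes fell and 1.48% rose. This list and those below were chosen with earlier results of these data known. Their counts are therefore descriptions and no independent support. The median difference was -1.03 (0.06 over all tested genes). Besides Stmn2 and Sstr2, the neuronal tubulin gene Tubb3 (-3.0, limma adjusted p = 0.00845), Stmn1, Nrep and Dpysl3 (a collapsin response mediator) fell. Tubb3 did not pass without 2-year preparation 2 (-3.06, limma adjusted p = 0.0646). Igfbpl1 was listed at 0 in all 102 old nuclei, which allows a share of up to 2.94%, and was in 30% and 18.4% of the 4-week nuclei. Dcx, the doublecortin gene that marks newborn neurons, had levels of 1.53 and 2.02 at 4 weeks, 0.44 and 0.26 at 2 years and 1.0 to 1.70 at 12 weeks. Its difference of -1.43 did not pass (SE 0.42, limma adjusted p = 0.0577), but it passed in 6 of the 22 other settings in which it was tested. Among these were the log2 of the mean value (-4.88, limma adjusted p = 0.024), a pseudocount of 10 (-0.90, limma adjusted p = 0.0367), the region label as a block (-1.43, limma adjusted p = 0.0341) and the fit without 4-week preparation 1 (-1.67, limma adjusted p = 0.0468). It was in 8 of 102 old nuclei, in 6 of them with 1 or 2 recovered reads. Sox11, a transcription factor of young neurons, had levels of 6.24 and 7.18 at 4 weeks, 3.89 and 4.66 at 2 years and 2.57 to 4.90 at 12 weeks, and did not pass either (-2.44, SE 0.76, limma adjusted p = 0.0749), except with a pseudocount of 10 (-1.77, limma adjusted p = 0.0482). Sox11 was in 62.7% of old nuclei.

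Of the 20 genes of mature granule neurons, a list also chosen with earlier results known, 5 rose and 0 fell (1.48% and 1.63% of all tested genes). The median difference was 1.12. Calb1 had levels of 3.08 and 2.88 at 4 weeks, 6.20 and 6.97 at 2 years and 7.64 to 8.73 at 12 weeks (difference 3.60, SE 0.66, limma adjusted p = 0.00142). It was in 35% and 30.6% of the nuclei at 4 weeks and 59.5% and 71.7% at 2 years. Lct, the Notch coactivator gene Maml2 (2.81), the desmosome gene Dsp (3.40) and Gabrd (3.70) rose as well. Dsp was not called without 2-year preparation 2 or 4-week preparation 1, Lct without 2-year preparation 2 and Gabrd without 4-week preparation 2 (limma adjusted p of up to 0.245). In the progenitor and cell cycle list 0 of 5 tested genes passed limma's test at the adjusted threshold, and 0 had an unadjusted p under 0.05.

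**Figure D4:**
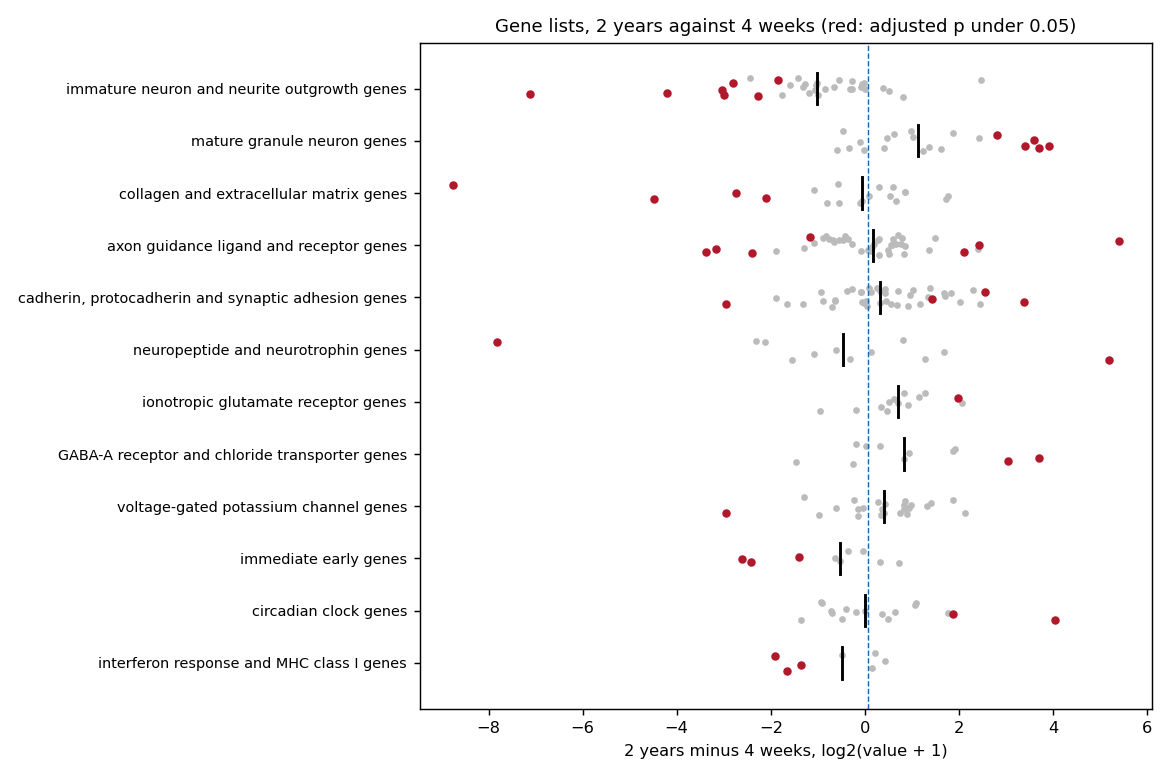
Difference between 2 years and 4 weeks (x axis, log2(value + 1)) for the tested members of 12 gene lists; each point is 1 gene, red where limma's adjusted p was under 0.05, each bar the median of a list, and the dashed line the median of all tested genes at 0.06. Of the immature neuron genes 7 fell and 0 rose, and of the mature granule neuron genes 5 rose and 0 fell. The lists were chosen with earlier results of these data known.

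The matrix genes that passed all fell, and axon guidance and adhesion genes passed in both directions. Over all tested genes 1.48% rose and 1.63% fell. Of 19 collagen and matrix genes 4 fell and 0 rose, the 3 collagen chains above and Agrn (agrin, a heparan sulfate proteoglycan, -2.74). The list's median was -0.07. Of 42 axon guidance genes 3 rose and 4 fell. Beside Slit1, the semaphorin co-receptor gene Nrp1 (2.42) and the netrin receptor gene Unc5c (2.11) rose. Sema3e, a ligand of plexin D1, fell by 3.37 (limma adjusted p = 1e-05), Ephb6, an Eph receptor without kinase activity, by 3.16, and Plxna3 by 2.40. Sema4g also passed and was listed at 0 in all 2-year nuclei. Of 43 adhesion genes 3 rose, among them Pcdh20 (3.37) and Cdh8 (2.55) with Cntn3 (1.43), and Cdh13, a cadherin held by a lipid anchor, fell by 2.96. Agrn, Nrp1, Ephb6, Pcdh20, Cdh8, Cntn3 and Cdh13 were each not called with at least 1 preparation left out (limma adjusted p of up to 0.292), Ephb6 and Pcdh20 only without 2-year preparation 2.

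The lists of receptor and channel genes held 0 to 2 called genes each, where 3.11% of all tested genes were called. Of 13 ionotropic glutamate receptor genes, Grin2a, the NMDA receptor subunit that increases as neurons mature, rose by 1.97 (SE 0.45, limma adjusted p = 0.00943) and 0 fell. Grin2b, the subunit of young synapses, had levels of 9.42 and 8.98 at 4 weeks and 9.21 and 10.1 at 2 years, which overlapped (limma adjusted p = 0.654). Of 11 GABA-A receptor and chloride transporter genes, Gabrd, whose delta subunit sits in extrasynaptic receptors, and Gabra5 (3.05) rose. The chloride transporter genes did not pass: Slc12a5 lay at 1.87 (limma adjusted p = 0.093) and Slc12a2 at -1.47 (limma adjusted p = 0.168). Of 24 potassium channel genes only Kcnip3 (-2.96) passed. Of 5 metabotropic glutamate receptor genes and of 3 opioid receptor genes 0 passed limma's adjusted threshold, and 0 in each list had an unadjusted p under 0.05. In the list of 18 NOS1 adaptor and NMDA receptor scaffold genes, Nos1ap was the gene that rose, and 0 fell. Of 12 peptide genes Cck rose and Penk fell. Without 2-year preparation 2, Grin2a (1.34), Gabra5 (2.43) and Kcnip3 (-2.44) were not called, without 4-week preparation 2 Gabra5 (1.72) and Gabrd (2.63) were not, and without 4-week preparation 1 Slc12a5 was (2.95, limma adjusted p = 0.00913). Slc12a5 also passed with nuclei of at least 4000 genes (2.09), with a term for detected genes per nucleus (1.76) and with the region label as a block (1.87).

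Some smaller lists held 1 to 3 called genes each, where 1.63% of all tested genes fell and 1.48% rose. Of 9 immediate early genes, which activity induces, 3 fell: Nptx2 by 2.62 (limma adjusted p = 0.000561), Fosl2 by 2.42 and Arc by 1.40. With the log2 of the mean value, none of these 3 passed. Nptx2 then lay at -2.18 (limma adjusted p = 0.522), Fosl2 at -1.68 (limma adjusted p = 0.449) and Arc at -1.61 (limma adjusted p = 0.602). Nptx2 was in 35% and 53.1% of nuclei at 4 weeks, 16.7% and 5% at 2 years and 0% to 4% at 12 weeks. Arc was in 20% and 22.45% at 4 weeks and in at most 7.14% in any other preparation. Nptx2 and Arc, like H2-D1 and H2-K1 below, reached the 20% needed for a test only at 4 weeks. They could hardly be called as rises. Of 7 interferon and MHC class I genes 3 fell, Ifi203 by 1.91, H2-D1 by 1.65 and H2-K1 by 1.36. Without nuclei that held 2 or more defining markers of another cell class, none of these 3 passed: H2-D1 lay at -0.88 (limma adjusted p = 0.36), H2-K1 at -0.80 (limma adjusted p = 0.305) and Ifi203 at -1.78 (limma adjusted p = 0.117). Of 17 clock genes Hlf and Rora (1.87) rose. Of 17 DNA methylation and polycomb genes Tet1, which oxidises methylcytosine, fell by 2.24. Of these, Arc, Fosl2, Rora, Tet1, Ifi203, H2-D1 and H2-K1 were not called with certain preparations left out, with limma adjusted p-values between 0.05 and 0.254. Arc and Fosl2 lost the call without 2-year preparation 2, and Fosl2 also without 4-week preparation 1. The other 5 lost it without either 2-year preparation, and also without others.

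Markers of other cell classes were present in the granule nuclei. The median astrocyte marker was in 30.9% of the 2-year and 32.6% of the 4-week nuclei, and the median marker of each other class in at most 2.94% and 7.25%. At least 2 markers of another class lay above a value of 10 in all 42 and all 60 nuclei of the 2-year preparations and in all 20 and 48 of 49 of the 4-week preparations. Gfap, the intermediate filament of astrocytes and neural stem cells, was in 30% and 22.4% of granule nuclei at 4 weeks, 16.7% and 8.33% at 2 years and 0% to 3.37% at 12 weeks, and fell by 1.51 (limma adjusted p = 0.0362). It reached the 20% of nuclei needed for a test only at 4 weeks, so it could hardly be called as a rise. Over all 12 astrocyte markers the summed level was 31.8 to 36.7 at 2 years, 33.8 to 34.8 at 4 weeks and 28.2 to 33.8 at 12 weeks, and the defining marker Aldh1l1 was at 0 at 2 years. The oligodendrocyte sum was 15.7 to 15.8 at 2 years and 15.5 to 19 at 4 weeks, with Mog at 0 at 4 weeks. The 10 microglial markers summed to 2.18 to 2.35 at 2 years and 0.69 to 4.06 at 4 weeks, with C1qa at 0 at 2 years and C1qc at 4 weeks, and the 8 precursor markers to 0 to 1.49 and 1.31 to 1.36, with Olig1 at 0 at 4 weeks. The 8 endothelial and mural markers summed to 0.74 to 0.95 and 0.37 to 1.5, with Cdh5 at 0 at both ages. GABAergic markers summed to 10.6 in both 2-year preparations and 7.17 to 8.19 at 4 weeks, with Slc32a1, Dlx1 and Dlx6os1 at 0 at both ages. Pyramidal and mossy cell markers summed to 9.23 to 10 and 7.60 to 9.18, with Nov at 0 at 2 years, and of these Fibcd1 rose (2.02, limma adjusted p = 0.0389). Gfap and Fibcd1 were each not called in several of the fits with a preparation left out (limma adjusted p of up to 0.323). Without the 17 and 21 nuclei with 2 or more defining markers of another class, a setting added after seeing the data, 239 of 11197 genes were called (2.13%). The differences of Penk and Col6a1 were then both -8.84, and 15 named genes lost the call: Tubb3, Grin2a, Cntn3, Fosl2, Rora, Ifi203, H2-D1, H2-K1, Gfap, Fibcd1, Npdc1, Uchl1, Matk, Rnf112 and Meg3. The limma adjusted p-values of these 15 ran from 0.0519 to 0.36. The part of other cells' RNA in the differences of these genes was not tested.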

How the data were processed

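Single nuclei of hippocampus were sequenced as full-length cDNA. Per the submitters' processing notes, Bowtie2 and RSEM 1.27 were used with the builds mm10 and GRCm38; the annotation is not given in the sources used here. The values the authors deposited are a natural log of a TPM-scale value plus 1, for 25392 genes in 924 nuclei; the plan had assumed TPM, and the median total was 4.42 times what TPM gives. Gaps between low values piled up at the natural log of 2 (1.49 times their flanks) and not at 1 (0.92 times). Values were taken out of the log, and a gene was detected above a value of 1. Reads were recovered from steps of low values for 11578 genes, with 81.9% of values under 10.5 steps within 0.1 of a whole number (20% if evenly spread); the steps were set from those same values, so this is no independent check.

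The mean of log2(value + 1) (pseudocount 1) over granule nuclei per preparation was compared in limma 3.58.1 (R 4.3.3) by a two-sided test with a variance trend over 8 preparations (2 at 2 years, 2 at 4 weeks, 4 at 12 weeks) and adjusted by Benjamini-Hochberg over the genes that at least 1 preparation had in 20% or more of its nuclei. On simulated data 24% of genes changed by 2, 92% changed by 4 and 100% changed by 6 on the log2 scale were recovered. The packages matplotlib 3.10.9, scipy 1.17.1, pandas 2.3.3 and numpy 2.4.6 of Python 3.11.15 gave the descriptions, 95% Wilson intervals, and for counts of 0 the share of 3 nuclei. Gene coordinates are those of GENCODE vM21.

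Named genes were the 10 largest changes each way, Penk, Col6a1, Slit1 and Nos1ap, up to 4 called members of each list by p, 8 further genes of maturation, and the 8 most and 8 least persistent genes; unnamed symbols, sex-linked genes and the genes of the rule were left out. Dpysl3, Stmn1, Nrep, Maml2, Plxna3, Unc5c, Sema4g and others outside this rule were named after their values were seen. The members and lists were chosen with earlier results of these data known. Other settings are given in the closing section.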

Additional observations from a re-analysis of the deposited data

Results flagged for a closer look

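Among the 12 genes whose 12-week levels are given, 1 preparation stood apart from the other 3 by Dixon's test at 95%. The mean log2(value + 1) of Calb1 was 7.64 in 12-week preparation 1 and 8.62 to 8.73 in the other 3. Chance alone sets apart about 1 in 20 groups.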

How the results depend on the processing

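Of 23 other settings, those not named next called a number of genes within 1.5 times that of 342 of 11003 (3.11%). The share called was 1.19% (131 genes) with only the 2-year and 4-week preparations, 0.98% (108) with the log2 of the mean value and 1.38% (148) with all nuclei. It was 1.23% (135) with the replicate block (preparation number as a pair) and 4.86% (269 higher and 266 lower) with the region label as a block. Leaving out 1 preparation gave 1.04% to 5.08% (114 to 559 genes). With only the 2-year and 4-week preparations 19 named genes lost the call, among them Col6a2, Tubb3, Grin2a, Nrp1, Kcnip3, Cdh13 and Arc. Same-numbered preparations did not deviate together (r = -0.06 over genes). This rests on 1 deviation for each age, so whether a number marks shared handling could not be told. Of the calls, 47.7% were rises at 2 years; this was 27.2% without the filter, 65.7% with the log2 of the mean and 27.4% to 65% with 1 preparation left out. No value of a named gene changed direction over 1413 refits, while 266 lost the call and 11 gained it. In some settings the difference could not change, since the 2-year and 4-week means stayed as they were. These were the fits with no filter or a stricter one, and those with either block. Others were the fit with only the 2-year and 4-week preparations, and those without a preparation of another age. Direction was therefore tested only in the remaining settings. Of 57 called named genes 13 kept the call in every setting in which they were tested, among them Col6a1, Penk, Stmn2, Rgs4, Slit1 and Nos1ap. The median share of 2-year nuclei with a gene of the set of 76 (42.6%) was 28.7% after thinning, over 48 genes, and 42.5% to 47.6% in 1 preparation alone. Leaving out nuclei with 2 markers of another class above 10 was not run, since nearly all nuclei have them; defining markers and recovered depth were added after seeing the data.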
